A study of Mus musculus with 15 samples.

Results

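A set of 10 genes that specify muscle and somite lineages was followed in H3K4me3 chromatin immunoprecipitation followed by sequencing (ChIP–seq) of mouse mature brown adipocyte (mBA) cells. The set was chosen by name, as regulators of the embryonic lineage that brown adipocytes share with skeletal muscle, with earlier results of these data known. It made up 10 of 21770 protein-coding genes in the annotation. It held the myogenic factors Myf5, Myf6, Myod1 and Myog, their cofactor Mef2c, the somite factors Tcf15, Meox1 and Meox2, the dermomyotome gene En1, and Tcf21, a basic helix–loop–helix factor of mesenchymal precursors.

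The study asked how loss of the mitochondrial protease CLPP, or exposure to 2-hydroxyglutarate (2HG), changes histone methylation in brown adipocytes. Each of the 3 groups had 4 ChIP libraries and 1 input library, and the peak caller combined the 4 replicates of a group into 1 peak list. WT cells carried the intact gene and were untreated. WT + 2HG cells were wild-type mBA cells given 500 µM octyl d-2HG in DMSO for 72 h, from day 3 of differentiation, with fresh compound every 24 h. CLPP-KO cells came from whole-body knockouts made with Clpp fl/fl and β-actin-Cre mice, and their medium contained uridine, which the labels name for CLPP-KO cells alone. All groups shared high-glucose DMEM without pyruvate and a differentiation cocktail of dexamethasone, IBMX, insulin and triiodothyronine, complete by day 8. The methods describe lines from newborn brown fat pads, immortalized with a lentiviral SV40 large T antigen under the PGK promoter and pooled from 2 animals of each sex for each genotype, whereas the labels call the cells primary. With 1 line for each genotype, the effects of the deletion, of the line and of the uridine cannot be told apart. No vehicle is named in the methods for untreated cells, so the effects of 2HG and of DMSO cannot be told apart either. Strain and the day of harvest were not given in the sources used here.

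H3K4me3 marks nucleosomes around active and poised start sites, and in vertebrates it is usually found at CpG-rich promoters. Brown adipocytes descend in large part from cells of the dermomyotome, the somite layer that also gives skeletal muscle and dermis and in which En1 and Myf5 are active. Myod1, Myf5, Myf6 and Myog encode basic helix–loop–helix factors that bind E-boxes and switch on muscle genes, with Mef2c as a partner, and PRDM16 and EBF2 are known for favouring brown fat over muscle.

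Sequence around the peaks is shown first, to show the CpG content under and beside peaks and, for comparison, before the starts of Myog and Myf5, which had no promoter peak. Each line is reference sequence of GRCm39 on the gene's own strand, 5′ to 3′, with CpG dinucleotides in capitals. The first 4 lines are 150 bp around the summit of the CLPP-KO peak and lie wholly in coding sequence, with 26 CpG at Tcf15 (chr2:151985694-151985843), 20 at En1 (chr1:120531287-120531436), 14 at Myod1 (chr7:46026573-46026722) and 7 at Meox2 (chr12:37159094-37159243). The last 4 lines are the 200 bp before the start site, with 17 CpG at En1 (chr1:120529908-120530107), 8 at Myod1 (chr7:46025670-46025869), 7 at Myog (chr1:134217507-134217706) and 3 at Myf5 (chr10:107321996-107322195, minus strand).
Tcf15 summit: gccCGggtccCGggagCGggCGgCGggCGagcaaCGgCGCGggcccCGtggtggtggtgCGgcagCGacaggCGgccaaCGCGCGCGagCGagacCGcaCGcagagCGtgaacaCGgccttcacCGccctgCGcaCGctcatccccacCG
En1 summit: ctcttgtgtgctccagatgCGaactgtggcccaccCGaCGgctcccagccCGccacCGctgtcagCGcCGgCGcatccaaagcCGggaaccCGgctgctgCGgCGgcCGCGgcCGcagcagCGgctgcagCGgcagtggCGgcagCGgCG
Myod1 summit: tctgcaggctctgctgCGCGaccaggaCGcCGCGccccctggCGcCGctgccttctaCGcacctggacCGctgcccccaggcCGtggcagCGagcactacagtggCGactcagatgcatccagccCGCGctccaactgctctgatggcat
Meox2 summit: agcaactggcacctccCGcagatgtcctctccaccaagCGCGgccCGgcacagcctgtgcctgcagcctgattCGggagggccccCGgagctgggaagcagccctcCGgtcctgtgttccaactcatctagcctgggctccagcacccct
En1 upstream: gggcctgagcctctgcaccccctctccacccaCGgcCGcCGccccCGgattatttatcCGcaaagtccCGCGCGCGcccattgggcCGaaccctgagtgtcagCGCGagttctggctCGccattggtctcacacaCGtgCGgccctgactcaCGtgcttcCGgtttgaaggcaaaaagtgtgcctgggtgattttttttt
Myod1 upstream: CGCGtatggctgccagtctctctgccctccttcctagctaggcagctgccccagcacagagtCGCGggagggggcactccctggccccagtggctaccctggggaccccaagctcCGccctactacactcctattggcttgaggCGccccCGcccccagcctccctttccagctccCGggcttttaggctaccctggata
Myog upstream: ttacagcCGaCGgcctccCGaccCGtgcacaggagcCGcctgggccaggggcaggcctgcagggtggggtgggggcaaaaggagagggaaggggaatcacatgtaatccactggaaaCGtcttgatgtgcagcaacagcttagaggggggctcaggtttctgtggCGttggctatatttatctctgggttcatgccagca
Myf5 upstream: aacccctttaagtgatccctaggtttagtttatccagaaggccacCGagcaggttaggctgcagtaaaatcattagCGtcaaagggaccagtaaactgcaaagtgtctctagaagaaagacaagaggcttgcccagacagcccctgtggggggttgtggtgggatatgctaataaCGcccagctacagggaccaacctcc

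The WT list held 12342 peaks, the WT + 2HG list 14059 and the CLPP-KO list 15118. A gene was counted as marked when a peak overlapped the 2000 bp on either side of any annotated transcript start. Peak strength is given as a percentile, the percent of peaks in the same list with a smaller area, because areas were not scaled between lists. A percentile also depends on how many weaker peaks its list holds, and the lists differ in size. A difference in percentile between lists therefore need not be a difference in signal. Percentile differences were not recomputed with lists of equal size. The summit −log10 p is the peak caller's own value at the highest point. Since each condition is 1 list, values carry no replicate spread and no difference below was tested. A weak mark in all cells and a strong mark in few cells cannot be told apart in such lists. The promoter of Clpp, the targeted gene, was marked in every list, at percentile 39.9 (WT), 45.2 (WT + 2HG) and 43.4 (CLPP-KO), which does not check the deletion.

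Of the 10 regulators, 4 were marked in WT, where 51.3% of all protein-coding genes were. WT + 2HG marked 4 of them against 56.4% of coding genes, and CLPP-KO marked 5 against 58.2%. Mef2c, En1, Meox2 and Tcf15 were marked in every list. The WT calls were weak: a summit p of at most 1e-05 left Meox2 and Tcf15, and an area of at least 1000 left Meox2 alone. Myod1 was marked in CLPP-KO and in neither other list. Myf5, Myf6, Myog, Meox1 and Tcf21 had no promoter peak in any list. Of the 6 members without a WT peak, 0 had a promoter peak in WT + 2HG and 1 in CLPP-KO, where 11.6% and 14.9% of the 10611 such coding genes did, and 5.15% had one in CLPP-KO and not in WT + 2HG. Read against these backgrounds, the counts alone do not set the members apart.

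**Figure D1:**
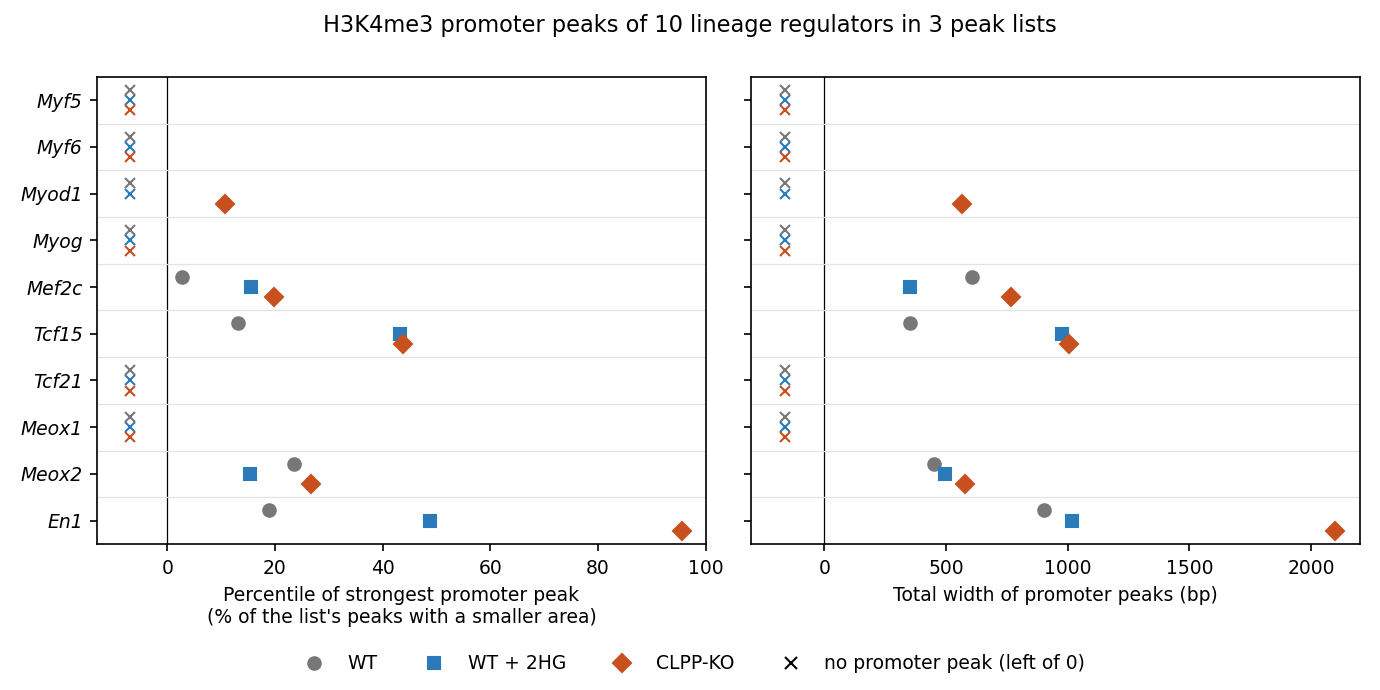
Percentile by area of each member's strongest promoter peak (left, percent) and total width of its promoter peaks (right, bp) in WT (grey circles), WT + 2HG (blue squares) and CLPP-KO (orange diamonds), with crosses left of 0 for members without a promoter peak. En1 in CLPP-KO lies alone at the right of both panels, at percentile 95.5 and 2100 bp, whereas the other marked members stay below the 50th percentile in every list.

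The myogenic factors were nearly bare of H3K4me3 peaks. Myf5 (chr10:107318769-107321995, minus strand) and Myf6 (chr10:107328712-107330656, minus strand), neighbours that act early in muscle commitment and in fibre maturation, had no peak nearby. The nearest peak to the Myf5 start lay 213577 bp away in WT and 213356 bp in CLPP-KO, but 74406 bp in WT + 2HG. For Myf6 the distances were 222238 bp in WT, 222017 bp in CLPP-KO and 65745 bp in WT + 2HG, and in no list did a peak reach either gene.

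Myod1, the factor that can convert fibroblasts to muscle (chr7:46025870-46028526, plus strand), had a single promoter peak in CLPP-KO at chr7:46026250-46026815. This peak was 566 bp wide and weak, with an area at percentile 10.7 and a summit −log10 p of 3.67. Its summit fell in coding sequence, 778 bp downstream of the start, and the peak did not reach the start itself. The nearest peak lay 262808 bp from the start in WT and 196193 bp in WT + 2HG, so no weaker call stood at the gene in those lists. The Myod1 peak was absent when CLPP-KO was limited to 12342 peaks, the size of the WT list, or to summits with p of at most 1e-05. The CLPP-KO list also held a pair of small peaks at the start of Kcnc1, a potassium channel gene, from 19659 bp downstream of the Myod1 start, 201 bp and 175 bp wide and at percentiles 0 and 3.37.

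Myog, which drives the final step of muscle differentiation (chr1:134217707-134220287, plus strand), had no promoter peak. A peak stood downstream, inside the neighbouring gene Ppfia4, in the other lists but not in WT. In WT + 2HG it spanned chr1:134226527-134227304, 778 bp at percentile 30.5, and began 8820 bp from the Myog start. In CLPP-KO it spanned chr1:134226381-134227281, 901 bp at percentile 41.5, and began 8674 bp away. The nearest WT peak was 71189 bp away.

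Mef2c, a MADS-box factor that works with the myogenic factors (chr13:83652064-83815555, plus strand), was marked in all lists at its cluster of start sites. The WT peak, chr13:83672480-83673084, was 605 bp wide and among the weakest of its list, at percentile 2.80 with a summit −log10 p of 3.41. In WT + 2HG the peak was narrower, chr13:83672760-83673112 or 353 bp, and stood at percentile 15.5 with a −log10 p of 6.77. In CLPP-KO the stronger of 2 peaks, chr13:83672659-83673116, was 458 bp wide at percentile 19.9 with a −log10 p of 7.24. The weaker CLPP-KO peak, chr13:83671906-83672216, was at percentile 5.52. The order in percentile and in summit −log10 p was therefore WT, WT + 2HG, CLPP-KO, whereas the order in width of the strongest peak differed. Ranked by area divided by width, WT + 2HG and CLPP-KO stood close together, at percentiles 22.7 and 22.9. All of the stronger peaks covered 10 or 11 of the 35 annotated Mef2c starts. A divergent noncoding gene, ENSMUSG00000130969, begins within 2000 bp of these peaks, so they could belong to either transcript.

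Tcf15, also called paraxis, a factor needed for somites to form an epithelium (chr2:151985474-151991034, plus strand), had a small peak in WT and a broader one in the other lists. The WT peak, chr2:151985612-151985963, was 352 bp wide at percentile 13.2, with a −log10 p of 6.51. In WT + 2HG the peak was chr2:151985234-151986209, 976 bp wide at percentile 43.2, with a −log10 p of 11.1. In CLPP-KO it was chr2:151985177-151986182, 1006 bp wide at percentile 43.7, with a −log10 p of 12.4. The WT peak lay downstream of all 3 annotated starts, from 131 to 482 bp, while the others covered all 3 and reached positions −247 and −304 from the start. Total width was 2.77 times that of WT in WT + 2HG and 2.86 times in CLPP-KO, and the summit stayed 260 to 315 bp downstream of the start. Of the members marked in every list, Tcf15 had the smallest gap in percentile between WT + 2HG and CLPP-KO.

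Tcf21, which counteracts muscle differentiation in mesenchymal precursors (chr10:22692803-22696073, minus strand), had no peak in any list. Its nearest peak lay 88062 bp away in WT, 87988 bp in CLPP-KO and 87987 bp in WT + 2HG.

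The Meox genes, homeobox factors of the somite with overlapping roles, differed from each other. Meox1 (chr11:101768336-101785227, minus strand) had no promoter peak, but a weak peak lay in an intron, 12354 bp from the nearest start in CLPP-KO and 12271 bp from it in WT + 2HG. It was 307 bp wide at percentile 5.65 in WT + 2HG and 261 bp wide at percentile 0.126 in CLPP-KO, where few peaks had a smaller area. No peak lay in Meox1 in WT, where the nearest was 69427 bp from the start.

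Meox2 (chr12:37158533-37229533, plus strand) was marked in every list, at nearly the same place. Its peak was 452 bp wide at percentile 23.6 in WT, chr12:37158979-37159430. It was 497 bp wide at percentile 15.4 in WT + 2HG, chr12:37158943-37159439, and 579 bp wide at percentile 26.7 in CLPP-KO, chr12:37158842-37159420. The summits lay 635 to 640 bp downstream of the start in all lists, within coding sequence, and none of the peaks covered the start. The summit position is also annotated to a second gene, Gm48617, which has no start within 2000 bp of the peaks. Meox2 was the only member marked in all lists whose percentile was lower in WT + 2HG than in WT, with a difference of −8.14 points. Its difference between CLPP-KO and WT was 3.12 points by area and −4.11 points by area per width, so no direction held.

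En1, a homeobox gene whose embryonic expression marks the central dermomyotome from which brown fat, dermis and muscle arise (chr1:120530108-120535721, plus strand), had the largest percentile difference between lists of the set. In WT it had 2 small peaks, chr1:120529848-120530193 (346 bp, percentile 0.0567) and chr1:120530473-120531029 (557 bp, percentile 18.8, −log10 p 4.91). In WT + 2HG it had 1 peak, chr1:120530524-120531541, which was 1018 bp wide at percentile 48.8, with a −log10 p of 11.3. In CLPP-KO the promoter peak was chr1:120529780-120531879, 2100 bp wide at percentile 95.5, with a −log10 p of 23.8, and its width exceeded that of 96.5% of peaks in the list.

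The CLPP-KO domain at En1 ran from position −328 to position 1771 relative to the start and enclosed the positions of both WT peaks and of the WT + 2HG peak. Further peaks followed along the gene in CLPP-KO alone, at chr1:120532170-120533028 (859 bp, percentile 39.7, summit in the intron) and chr1:120534398-120535241 (844 bp, percentile 37.2, summit in the untranslated part of the last exon). The percentile difference between CLPP-KO and WT was 76.7 points, rank 3 of the 11084 coding genes with a promoter peak in both lists. For WT + 2HG it was 29.9 points, rank 421 of 11057. The members were chosen with earlier results of these data known, so these ranks are described only. Total promoter width was 2.33 times that of WT in CLPP-KO and 1.13 times in WT + 2HG, where merging peaks within 1000 bp of each other gave 0.861 times. The noncoding gene Gm69561 starts on the minus strand just upstream of En1, and the CLPP-KO peak and the weaker WT peak also cover its start.

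**Figure D2:**
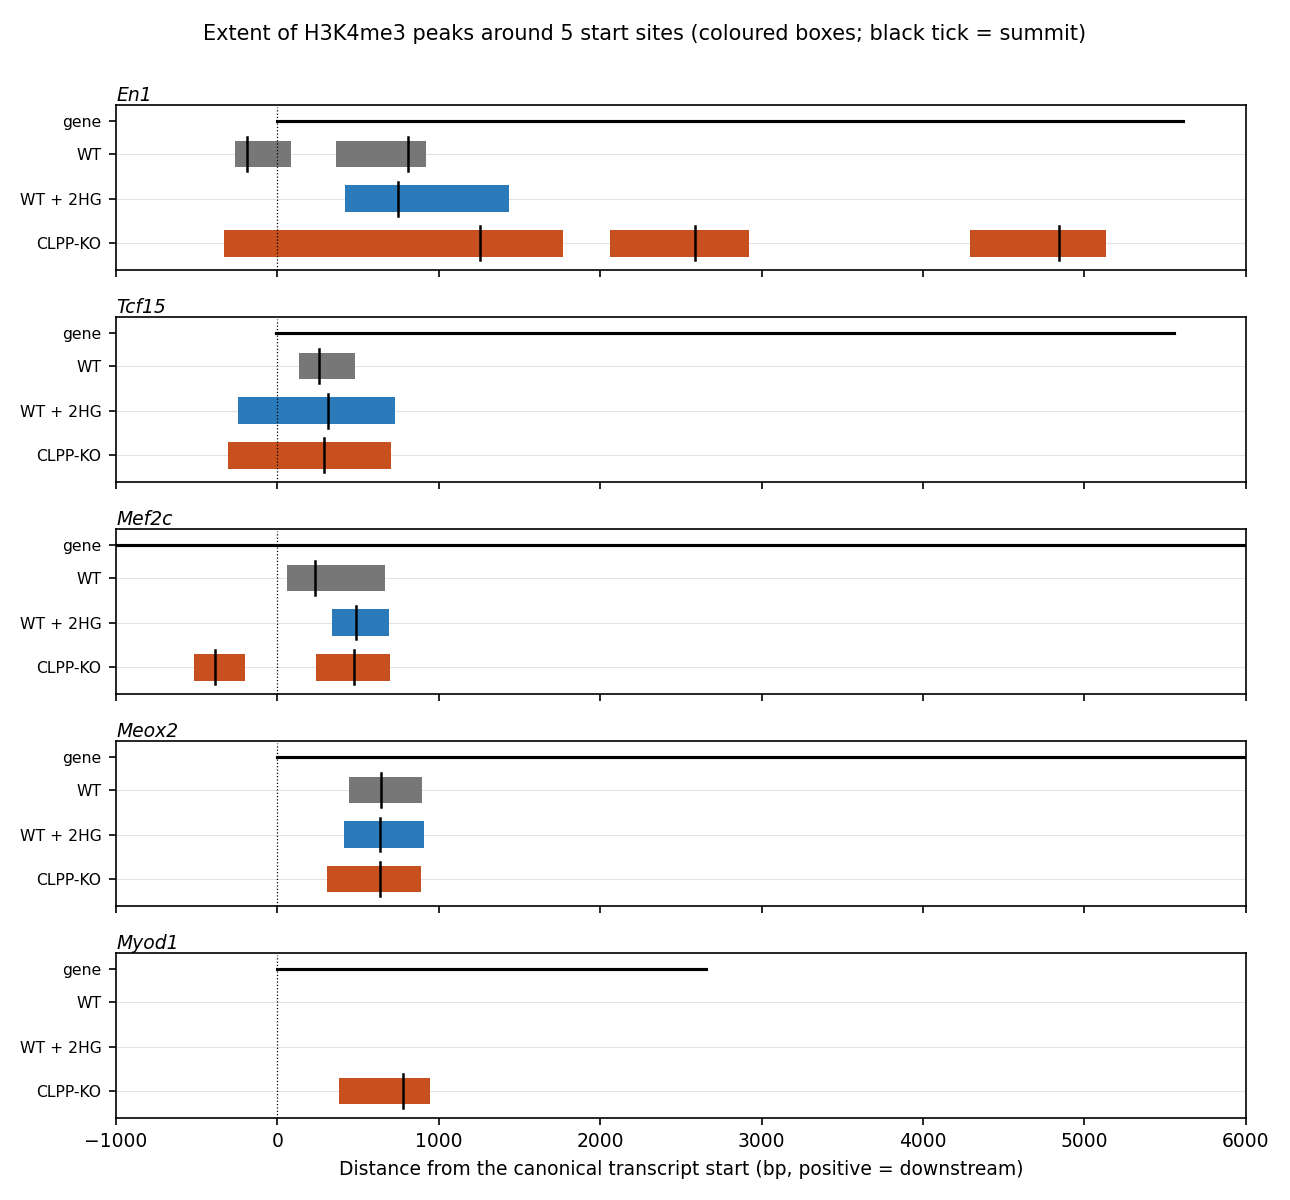
Extent of the H3K4me3 peaks of WT (grey), WT + 2HG (blue) and CLPP-KO (orange) at 5 members, plotted as distance in bp from the canonical transcript start, with a black line for the gene and a black tick at each summit. The CLPP-KO domain at En1 is 2100 bp wide and is followed by further peaks in the gene, the Tcf15 peak covers the start in WT + 2HG and CLPP-KO but not in WT, and Myod1 has a peak in CLPP-KO alone.

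For the members marked in every list, differences between lists were set beside all coding genes marked in both. The percentile was higher in WT + 2HG than in WT for 3 of the 4 members, against 64.4% of coding genes, and higher in CLPP-KO than in WT for 4 of 4, against 69.8%. A total width of at least 1.5 times that of WT was found for 1 of 4 members in WT + 2HG (Tcf15), against 13.9% of coding genes, and for 2 of 4 in CLPP-KO (Tcf15 and En1), against 14.3%. The median percentile difference over all coding genes was 5.28 points for CLPP-KO and 3.69 for WT + 2HG.

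All 4 of these members lay below the 25th percentile in WT. Among the coding genes that started there, 1617 for WT + 2HG and 1644 for CLPP-KO, the median difference was 14.7 and 17.4 points, and the 90th percentile of the differences was 32.3 and 37.7 points. Against these, Mef2c with 12.7 and 17.1 points lay near the median in both lists, and Meox2 with −8.14 and 3.12 points lay below it. Tcf15 with 29.9 and 30.5 points lay between the median and the 90th percentile in both. En1 lay between them in WT + 2HG, with 29.9 points, and beyond the 90th percentile in CLPP-KO, with 76.7. Even so, the median marked coding gene stood at percentile 59.3 (WT), 60.6 (WT + 2HG) or 62.0 (CLPP-KO), above every marked member except En1 in CLPP-KO.

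CpG content separated the marked from the unmarked members in part. The ratio of observed to expected CpG was taken over 1000 bp centred on the canonical start. It was 1.06 at Tcf15, higher than at 99.5% of coding genes, 0.721 at En1 and 0.664 at Mef2c. Meox2, with 0.456, was marked in all lists at a ratio close to those of unmarked Tcf21 (0.467) and of Myod1 (0.466). The remaining members were lower, with 0.409 at Meox1, 0.406 at Myf5, 0.365 at Myf6 and 0.324 at Myog. The median was 0.753 for coding genes marked in WT, 0.237 for those not marked in WT and 0.589 for those marked in CLPP-KO but not in WT.

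Between ratios of 0.25 and 0.5, where 7 of the 10 members lie, 22.0% of 3818 coding genes were marked in WT, and the share was 29.2% for WT + 2HG and 32.0% for CLPP-KO. At ratios of 0.75 and above the shares were 91.9%, 95.6% and 96.3%. The window centred on the start does not include all of the sequence under the peaks, and the Myod1 and Meox2 peaks sat further downstream. The 500 bp richest in CpG within the promoter window began 300 bp downstream of the Myod1 start, with 49 CpG, and 700 bp downstream of the Meox2 start, with 28. The unmarked Tcf21 had 39 CpG in such a stretch and Mef2c, marked in all lists, had 37, whereas Myf5 and Myog had 20 each. The median was 53 for coding genes marked in WT and 13 for those not marked.

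**Figure D3:**
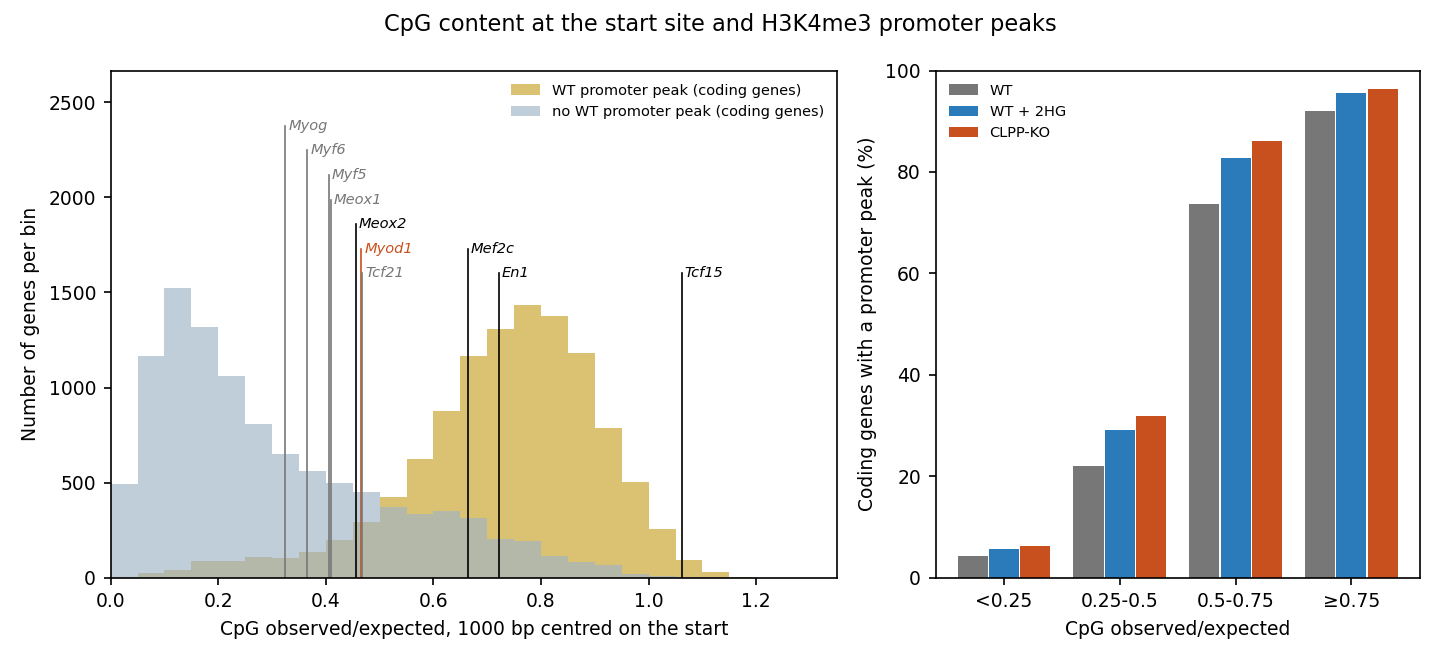
Left, number of coding genes by ratio of observed to expected CpG over 1000 bp at the start, for genes with (gold) and without (blue-grey) a WT promoter peak, with the members as vertical lines in black (marked in all lists), orange (CLPP-KO alone) or grey (unmarked). Right, percent of coding genes marked in each list by the same ratio, rising from 4.27% in WT below 0.25 to 91.9% at 0.75 and above.

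Under the peaks themselves, CpG density was 15.3 per 100 bp at Tcf15 in WT, and 12.4 and 12.3 in the wider peaks of WT + 2HG and CLPP-KO. At En1 it was 10.2 in the stronger WT peak, 10.6 in WT + 2HG and 7.71 over the long CLPP-KO domain. The Myod1 peak had 8.83 CpG per 100 bp, and the Meox2 peaks had 4.66 to 4.87. At Mef2c the density was 6.45 in WT, 7.37 in WT + 2HG, and 6.33 and 4.82 in the stronger and weaker CLPP-KO peaks. The median over peaks at coding promoters was 7.41 in WT and 7.28 in CLPP-KO. The E-box, CANNTG, which reads the same on both strands, occurred in 7 of the 10 members from 250 bp before to 50 bp after the start, and in 70.6% of all coding genes.

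Genes known to act with or upstream of the members were counted in the same way. From a list of 28 partners, inhibitors and upstream factors, 18 were marked in WT (64.3%, against 51.3% of all coding genes), while WT + 2HG had 22 (78.6%, against 56.4%) and CLPP-KO had 25 (89.3%, against 58.2%). Of the 10 without a WT peak, 4 had one in WT + 2HG, against 11.6% of such coding genes, and 7 had one in CLPP-KO, against 14.9%. This list and those below were chosen with earlier results of these data known, so differences from these shares are described only. Marked in both other lists but not in WT were Pax3, Eya2, Mesp2 and Lbx1, and marked in CLPP-KO alone were Pax7, Myocd and Ripply2. Stricter thresholds and equal list sizes were tried for the members alone. In CLPP-KO, Myocd and Eya2 stood at percentiles 6.33 and 7.92, below Myod1 at 10.7. The Six4 peaks were shared with Mnat1 in all lists, and a Mef2b peak in WT + 2HG with Borcs8 and Rfxank. The presomitic regulators Tbx6, Msgn1 and Ripply1 were marked in no list.

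Some of these genes are given as examples, picked after their values were seen. Each width is the total over all promoter peaks of the gene, whereas the percentile is that of its strongest promoter peak. The width and the percentile therefore need not describe the same peak. Pax3, which acts upstream of Myf5 and Myod1, had 498 bp at percentile 19.7 in WT + 2HG and 1111 bp at percentile 51.6 in CLPP-KO. Pax7, the factor of muscle satellite cells and of early brown fat precursors, had 2066 bp at percentile 53.0 in CLPP-KO. Lbx1, a factor of migrating muscle precursors, had 1482 bp at percentile 35.8 in WT + 2HG and 3593 bp at percentile 91.7 in CLPP-KO. En2, the paralogue of En1, had 808 bp at percentile 15.3 in WT, 1676 bp at percentile 47.7 in WT + 2HG and 1596 bp at percentile 51.7 in CLPP-KO. Thus En2 in CLPP-KO did not reach the percentile of En1, while Lbx1 came near it. All of the examples in this paragraph stood highest in CLPP-KO, which was not so for the whole list. Eya2 stood lower in CLPP-KO than in WT + 2HG, and Id1 and Tcf4 stood lower in both other lists than in WT.

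Genes of differentiated skeletal muscle were largely unmarked. Of 26 such genes the WT list marked 3, the WT + 2HG list 4 and the CLPP-KO list 5, or 11.5%, 15.4% and 19.2% where the shares over all coding genes were 51.3%, 56.4% and 58.2%. Of the 23 without a WT peak, 1 had one in WT + 2HG and 2 had one in CLPP-KO, against 11.6% and 14.9% of such coding genes. The peaks of Mylpf, Ckm and Actn3, present in all lists, also covered the promoter windows of the neighbouring genes Tbc1d10b, Klc3 and Zdhhc24. Des, the muscle intermediate filament, had a peak at percentile 5.82 in WT + 2HG and percentile 6.62 in CLPP-KO, and Actn2 had one at percentile 9.47 in CLPP-KO. Acta1, the Myh genes, Ttn and Neb were unmarked in every list.

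The label of the cells was set against a list of 15 brown adipocyte markers, of which 5 were marked in WT, and 9 and 10 in the WT + 2HG and CLPP-KO lists. These are shares of 33.3%, 60.0% and 66.7%, below the 51.3% of all coding genes in WT and above the 56.4% and 58.2% in the other lists. Of the 10 markers without a WT peak, 4 had one in WT + 2HG and 5 in CLPP-KO, beside backgrounds of 11.6% and 14.9%. Prdm16, Pparg, Cebpa, Cebpb and Zic1 were marked in all lists, the last 2 at peaks shared with Peds1 and Zic4. Prdm16 stood at percentile 93.5 in WT, with 99.7 after 2HG and 96.1 in CLPP-KO. Ebf2 was marked in CLPP-KO alone, at percentile 22.2. The promoters of Ucp1, Adipoq, Fabp4, Cidec and Ppargc1a, genes known for high activity in mature brown fat, had no peak in any list. The paper reports a strong rise of UCP1 in both WT and CLPP-KO mBA cells, and induction of Ppargc1a transcripts in CLPP-KO cells. A promoter without a peak here therefore need not belong to a silent gene. Of 4 endothelial markers 1, Kdr, was marked in each list, and of 4 haematopoietic markers 0 were.

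**Figure D4:**
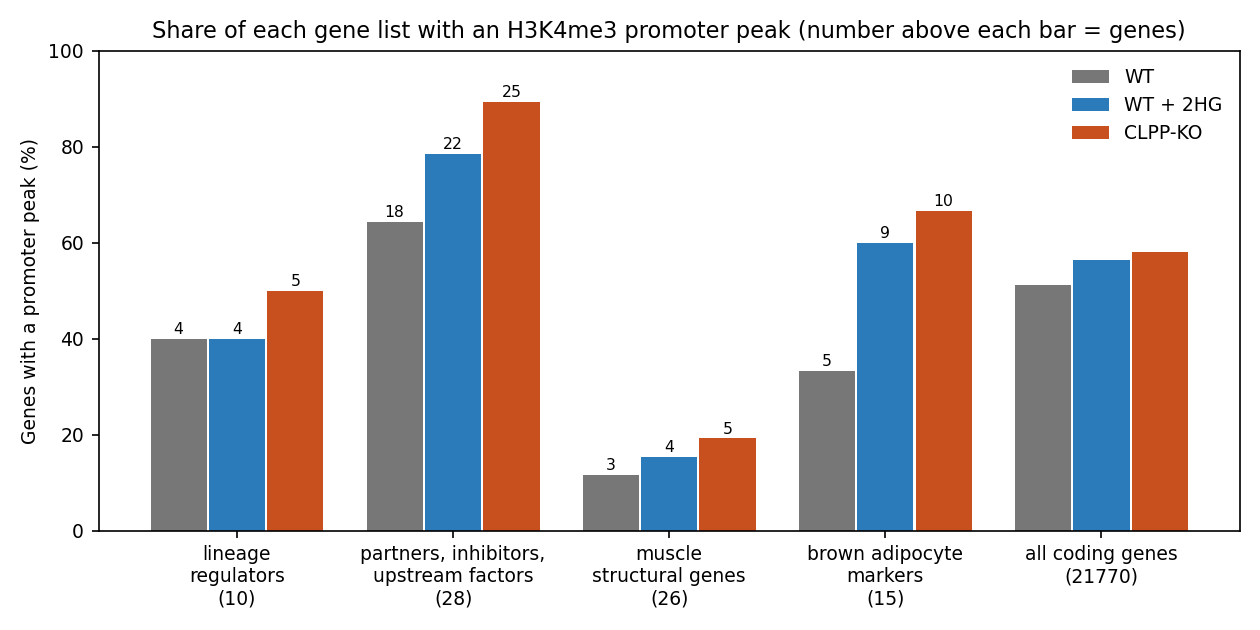
Percent of each gene list with an H3K4me3 promoter peak in WT (grey), WT + 2HG (blue) and CLPP-KO (orange), with the number of marked genes above each bar and the list size below. Partners and upstream factors go from 18 to 25 of 28 genes, the 10 lineage regulators from 4 to 5, and muscle structural genes from 3 to 5 of 26, beside a rise from 51.3% to 58.2% over all coding genes.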

How the data were processed

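H3K4me3 ChIP–seq had been done on mBA cells in 4 replicates for each condition (WT, CLPP-KO and WT + 2HG), which the methods call biological, with 1 input each. Per the methods and the submitters' processing notes, the authors trimmed reads with fastp 0.23.4, mapped them with BWA 0.7.17 to GRCm39 (mm39), removed duplicates, and called peaks with Genrich 0.6.1 (q of 0.05, area minimum of 20), combining replicate p-values by Fisher's method. deepTools 3.5.4 is also named. The deposited signal of a peak is the area under its −log10 p curve, not scaled between lists, and the lowest area in each list was about 200. The deposited −log10 p is the value at the summit, and the deposited summit offset is another column, in bp from the peak's start. The column for q held no q values and was not used. The sources give 25000000 reads as sequencing depth, and the depth of each library is unknown from the peak lists.

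Peaks were joined to start sites of the GENCODE M39 annotation of GRCm39, in Python 3.11.15 with pandas 2.3.3. All peaks on shared chromosome names ended within the reference chromosomes, and 77 WT peaks, 6 WT + 2HG peaks and 217 CLPP-KO peaks lay on names the reference lacks. A promoter peak overlapped 2000 bp either side of any transcript start. Overlaps were checked on simulated peaks against bedtools 2.31.1. Percentiles, widths and CpG ratios were computed as described with the results. Samples were grouped by their labels, and all 10 members were named, beside gene lists given as counts, with values for up to 6 examples each. The members and lists were chosen with earlier results of these data known. No test was made. Alternative windows, thresholds, list sizes and rankings were tried.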

Additional observations from a re-analysis of the deposited data

How the results depend on the processing

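No paired analysis was possible because each condition has 1 peak list that combines its replicates, and for the same reason no replicate could be left out. The members with a promoter peak were the same with windows of 1000 bp or 5000 bp, with coding transcripts only, with the summit in the window and with 50% overlap. With a summit p of at most 1e-05 there were 2 members in WT (Meox2 and Tcf15), and members marked without a WT peak then numbered 2 in either other list. With an area of at least 1000 there were 1 in WT (Meox2) and 2 in WT + 2HG (En1 and Tcf15), with 3 CLPP-KO members and 2 WT + 2HG members marked there but not in WT. No share of all coding genes was counted at these stricter thresholds, so the counts there do not set the members apart. Because areas were not scaled between lists, the area threshold need not be equally strict in each. With lists of equal size, by area or by summit p, 0 members were marked in CLPP-KO but not in WT. Counting the strongest peak alone, 2 members were at least 1.5 times as wide in WT + 2HG as in WT. Directions turned for 3 members. For Meox2 the percentile difference between CLPP-KO and WT was −4.11 by area per width and −0.00511 among coding promoter peaks, and that between WT + 2HG and WT was 3.12 by width. For Mef2c the differences by width were −11.8 for CLPP-KO and −20.0 for WT + 2HG, and the width ratio of the strongest peak was 0.757 in CLPP-KO. With peaks within 1000 bp merged, the En1 width ratio in WT + 2HG was 0.861, that of Mef2c in CLPP-KO was 2.00 against 1.27 unmerged, and 3 members rather than 2 were at least 1.5 times as wide in CLPP-KO as in WT. The percentile of En1 in CLPP-KO exceeded that in WT by 58.5 points or more under every ranking, and Tcf15 by 13.8 points or more. The causes were not tested. A gene without a peak was not called, which does not show that it lacks the mark.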
